A study of Mus musculus with 8 samples.

Results

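The 7 genes described here encode the light chains of antibodies in the mouse. They are Igkc, the constant gene of the kappa light chain, Iglc1, Iglc2 and Iglc3, the constant genes of the lambda light chain, and Iglv1, Iglv2 and Iglv3, the lambda variable (V) genes. They were chosen by gene name from the 54532 genes in the count table, with earlier results of these data known. The counts came from RNA sequenced in bulk from the SVF (stromal vascular fraction), the cells other than adipocytes that collagenase releases from white adipose tissue (WAT). Each of the 8 libraries came from a gonadal fat pad of a different male C57BL/6J mouse. All mice were fed HFD (high-fat diet, 60% of calories from fat) for 12 weeks, then switched to normal chow (NCD, 16% of calories from fat) for 6 weeks, until week 18. Their age at the start of HFD was taken as 6 weeks. The paper states this age for a separate model with continued HFD, and gives no starting age for the mice described here. Its methods name mice of 8 or 16 weeks. From the switch onwards, 4 mice (numbers 1, 2, 6 and 9) received an isotype control antibody (Ab) and 4 mice (numbers 5, 7, 8 and 10) received the neutralizing anti-BAFF Ab Sandy-2, each at 2 mg/kg every 2 weeks. Both groups were therefore formerly obese mice on the same diets, and the comparison asks what neutralizing BAFF did to light chain transcripts in the gonadal WAT.

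BAFF is a cytokine on which mature B2 cells depend for survival. A B cell builds its light chain gene by joining a V segment to a J segment that lies in front of a constant gene, and a given cell normally expresses either a kappa or a lambda light chain. In mice, kappa is used far more often than lambda. The lambda locus is small and has been duplicated, so that a V gene can be joined only to the constant genes that lie downstream of it. Light chain transcripts are found in all mature B cells and are most abundant in plasma cells, which secrete antibodies. In bulk tissue, a lower level of these transcripts through fewer B or plasma cells and through less RNA per cell cannot be told apart.

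In the coordinates of the table (mm10), Igkc lies on the plus strand of chromosome 6 at chr6:70726435-70726966. All lambda members lie on the minus strand of chromosome 16, so that the direction of transcription runs from higher to lower coordinates. In that direction, Iglv2 (chr16:19260401-19260859) and Iglv3 (chr16:19241207-19241690) come first, followed by Iglc2 (chr16:19198396-19200351). Iglv1 (chr16:19085017-19085500), Iglc3 (chr16:19065230-19065681) and Iglc1 (chr16:19061618-19062071) follow. Iglv2 thus lies 60.0 kb and Iglv3 40.9 kb upstream of Iglc2. Iglv1 lies 19.3 kb upstream of Iglc3 and 22.9 kb upstream of Iglc1, but 113 kb downstream of Iglc2. All 7 members overlapped the RefSeq gene of the same symbol. Iglc2 and Iglc3 are close copies of each other, as are Iglv1 and Iglv2, so reads could be divided between the copies by the counting method. The Iglc2 row also spans the J segment in front of it, Iglj2, whose own row held 0 counts in all mice.

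Kappa was by far the most abundant light chain in the SVF of both groups. Per kilobase of gene length, the control Ab-treated mice had 1058 ± 237 CPM of Igkc (SD, n = 4), where CPM are counts scaled to a common library size. The lambda genes followed in the order Iglv2 at 37.4 ± 25.7, Iglv1 at 36.7 ± 16.6, Iglc2 at 27.8 ± 15.5, Iglc1 at 22.1 ± 8.65, Iglc3 at 9.19 ± 8.65 and Iglv3 at 1.99 ± 0.587 CPM per kilobase (SD, n = 4). Among these lambda genes, neighbours in the order differed by less than the larger of their SDs, except for Iglc1 and Iglc3. The order was different with anti-BAFF Ab. Igkc stood at 164 ± 78.2, Iglv1 at 8.85 ± 2.11, Iglc1 at 7.08 ± 2.75, Iglc2 at 2.90 ± 0.842, Iglv2 at 2.29 ± 0.269, Iglc3 at 1.57 ± 0.586 and Iglv3 at 0.553 ± 0.458 CPM per kilobase (SD, n = 4). There, Iglv1 and Iglc1, and Iglc2 and Iglv2, were the lambda neighbours whose means differed by less than the larger SD.

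Igkc, the constant gene that all kappa transcripts share, fell with anti-BAFF Ab treatment. Its level was 582, 414, 537 and 719 CPM in control Ab-treated mice 1, 2, 6 and 9, and 112, 46.4, 132 and 57.5 CPM in anti-BAFF Ab-treated mice 5, 7, 8 and 10. The groups did not overlap, and within the treated group, mice 5 and 8 retained more than mice 7 and 10. The mean was 6.47-fold higher in the control group, and the log2 fold change was −2.69 (SE 0.35, adjusted p = 0.0447, edgeR's quasi-likelihood test, two-sided, Benjamini-Hochberg adjustment over 15963 genes). The depth behind these values was 7011 to 11635 Igkc counts per control library and 826 to 2033 per anti-BAFF library.

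**Figure D1:**
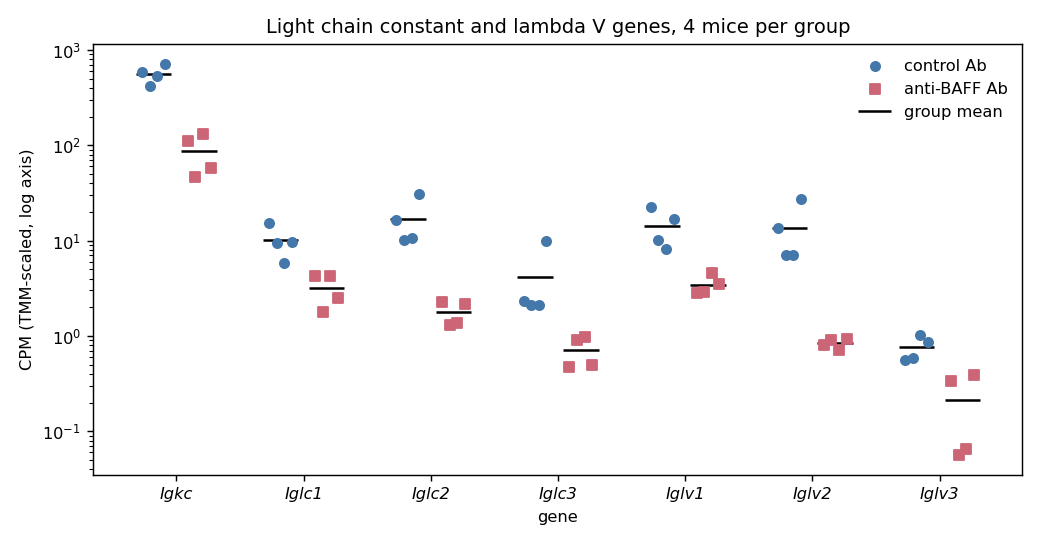
CPM (log axis) of the 7 light chain genes in each mouse. Points are mice and bars mark the group mean. In each gene the 4 anti-BAFF Ab-treated mice lie below the 4 control Ab-treated mice. The distance between the means is widest for Iglv2 and Iglc2 and narrowest for Iglc1 and Iglv3.

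Iglv2 and Iglc2, which lie upstream in the lambda locus, also fell. Iglv2 was at 13.7, 7.02, 7.08 and 27.0 CPM in control mice 1, 2, 6 and 9 and at 0.806, 0.899, 0.716 and 0.936 CPM in anti-BAFF mice 5, 7, 8 and 10. Iglc2, the constant gene downstream of Iglv2, was at 16.5, 10.3, 10.7 and 30.5 CPM in the control mice and at 2.28, 1.29, 1.37 and 2.15 CPM in the anti-BAFF mice, in the same order. Control mouse 9 was the highest for both genes, and neither gene overlapped between the groups. The anti-BAFF values of Iglv2 lay within a narrow band and rested on 11 to 17 counts per library. The means were 16.3-fold higher in the control group for Iglv2 (log2 fold change −4.01, SE 0.49, adjusted p = 0.0447 in edgeR) and 9.59-fold higher for Iglc2 (log2 fold change −3.26, SE 0.40, adjusted p = 0.0447 in edgeR).

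Iglv1 and Iglc1, which lie farther downstream, had smaller differences that missed the threshold. Iglv1 was at 22.3, 10.1, 8.10 and 16.9 CPM in control mice 1, 2, 6 and 9 and at 2.82, 2.92, 4.62 and 3.47 CPM in anti-BAFF mice 5, 7, 8 and 10. Iglc1 was at 15.3, 9.56, 5.77 and 9.58 CPM in the control mice and at 4.23, 1.80, 4.30 and 2.53 CPM in the anti-BAFF mice. Here control mouse 1 was the highest and control mouse 6 the lowest, and again the groups did not overlap. In edgeR, Iglv1 had a log2 fold change of −2.05 (SE 0.33, adjusted p = 0.147), and Iglc1 one of −1.65 (SE 0.36, adjusted p = 0.537).

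The rarer members, Iglc3 downstream and Iglv3 upstream, were measured less precisely and did not clearly follow this division by position. Iglc3 was at 2.35, 2.12, 2.12 and 10.02 CPM in control mice 1, 2, 6 and 9 and at 0.470, 0.899, 0.977 and 0.495 CPM in the anti-BAFF mice, with a log2 fold change of −2.54 (SE 0.61, adjusted p = 0.793 in edgeR). This was a larger difference than for Iglv1 and Iglc1. Control mouse 9 stood apart from the other control mice. Without it, the log2 fold change of Iglc3 was −1.62 (adjusted p = 0.595 in edgeR), beside −1.96 for Iglv1 and −1.67 for Iglc1. Iglv3, which had 47 counts in all control libraries together and 14 in all anti-BAFF libraries, was below the filter on low counts and was not tested. Its level was 0.557, 0.590, 1.02 and 0.866 CPM in the control mice and 0.336, 0.0562, 0.0651 and 0.385 CPM in the anti-BAFF mice, and these groups did not overlap either.

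Of the 7 members, 6 passed the filter, and 3 of them (Igkc, Iglc2 and Iglv2) passed an adjusted p of 0.05 in edgeR, all lower with anti-BAFF Ab. Of all 15963 tested genes, 9 did so (0.0564%), and 0 were higher. At an unadjusted p of 0.05, all 6 were lower, against 1.24% of all tested genes (0.664% were higher). Each of the 6 tested members had lower values in every anti-BAFF mouse than in any control mouse, which was so for 0.952% of tested genes (0.526% in the opposite direction). Iglv3, which was not tested, was also lower in this way, on 1 to 7 counts per anti-BAFF library. DESeq2 called 6 members lower, against 0.209% of the genes to which it gave an adjusted p (0.0098% higher), and did not call Iglv3. The adjusted p of 0.0447 was shared by the genes at ranks 3 to 9 and was close to the threshold. edgeR called no member when control mouse 1, control mouse 6 or any of the 4 anti-BAFF mice was left out, although 6 members stayed below an unadjusted p of 0.05 in each of these fits. Without control mouse 2 or control mouse 9 it called Iglc2 and Iglv2 but not Igkc. The log2 fold changes over these 8 fits ranged from −2.98 to −2.50 for Igkc, from −3.44 to −2.81 for Iglc2 and from −4.23 to −3.45 for Iglv2.

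The lambda transcripts were of a different make-up in the control and anti-BAFF mice, although the tests of this missed the threshold after adjustment. Iglc2 made up 48.3, 46.8, 57.6 and 60.9% of the lambda constant counts in control mice 1, 2, 6 and 9, and 32.7, 32.4, 20.6 and 41.5% in anti-BAFF mice 5, 7, 8 and 10. Iglc1 made up 44.8, 43.5, 31.0 and 19.1% in the control mice and 60.6, 45.1, 64.7 and 48.9% in the anti-BAFF mice. Thus Iglc2 led in all control mice and Iglc1 in all anti-BAFF mice, and control mouse 1 and anti-BAFF mouse 7 came closest to each other in their Iglc1 share. Iglc3 made up 12.0 ± 5.64% in the control group and 13.4 ± 6.93% in the anti-BAFF group (SD, n = 4). The log2 ratio of Iglc2 to Iglc1 counts was 0.11, 0.10, 0.89 and 1.67 in the control mice and −0.88, −0.47, −1.63 and −0.24 in the anti-BAFF mice. The groups did not overlap in this ratio, and the difference of −1.50 reached the smallest p that 4 against 4 mice allow (exact permutation test, two-sided, p = 0.0286), with an adjusted p of 0.0514 over the 9 measures per mouse that were compared in this way. After adjustment it therefore missed 0.05, as did each of the 5 measures that reached that smallest p. Their adjusted p was set by how many of the 9 measures reached it. Per kilobase, the ratio of Iglv2 and Iglv3 to Iglc2 reached it too, and the per-kilobase p-values were not adjusted. Leaving out single mice moved the difference in the Iglc2 to Iglc1 ratio between −1.69 and −1.17.

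**Figure D2:**
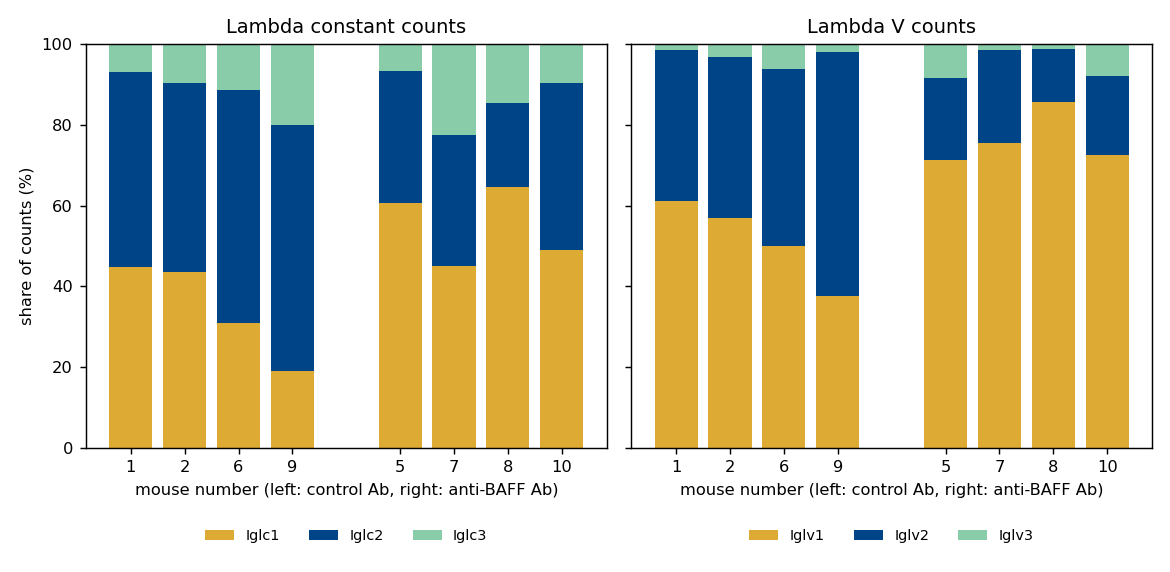
Share (percent) of Iglc1, Iglc2 and Iglc3 in the lambda constant counts (left) and of Iglv1, Iglv2 and Iglv3 in the lambda V counts (right), with a stacked bar per mouse. The Iglc2 segment covers 46.8 to 60.9% in the control group and 20.6 to 41.5% in the anti-BAFF group. The Iglv1 segment is longer in each anti-BAFF Ab-treated mouse than in any control mouse.

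The V genes were divided in a like manner. Iglv1 accounted for 61.0, 57.0, 50.0 and 37.7% of lambda V counts in control mice 1, 2, 6 and 9, and for 71.2, 75.4, 85.5 and 72.4% in anti-BAFF mice 5, 7, 8 and 10. Iglv2 accounted for 45.3 ± 10.4% in the control group and 19.1 ± 4.19% in the anti-BAFF group (SD, n = 4). Every anti-BAFF mouse thus had a higher Iglv1 share than any control mouse, by 24.7 percentage points on average (exact permutation test, p = 0.0286, adjusted p = 0.0514). Control mouse 9 was at the Iglc2 and Iglv2 end of the control group, and anti-BAFF mouse 8 was at the Iglc1 and Iglv1 end of the treated group.

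V genes were next set against the constant genes. Over the 8 mice, the ratio of Iglv2 to Iglc2 counts varied least, with an SD of 0.44 on the log2 scale and values from 0.353 to 0.885. Iglv1 to Iglc1 followed, with an SD of 0.45 on the log2 scale and values from 0.667 to 1.76. In both, the constant gene lies downstream of the V gene. This is also so for Iglv3 and Iglc2, whose ratio had an SD of 0.95 on the log2 scale and rested on 1 to 14 Iglv3 counts per library. Iglv2 to Iglc1, which lies 198 kb downstream of Iglv2, varied most, with an SD of 1.35 on the log2 scale and values from 0.167 to 2.82. Iglv1 to Iglc2, for which the V gene lies downstream of the constant gene, had an SD of 0.83 on the log2 scale. Iglv1 to Iglc3, for which the constant gene lies downstream, had one of 0.74. Among all 21 pairs of members, the pairs of Iglv2 with Iglc2 and of Iglv1 with Iglc1 had the smallest SDs, and Igkc with Iglc2 came next at 0.62 on the log2 scale. These SDs describe libraries that share their depth, include the difference between the groups and are given without a test. Within the control group alone, the SD was 0.21 for Iglv2 to Iglc2 and 0.30 for Iglv1 to Iglc1. It was 0.55 for Iglv1 to Iglc2 and 1.02 for Iglv1 to Iglc3. Within the anti-BAFF group alone, the SD was 0.41 for Iglv2 to Iglc2 and 0.55 for Iglv1 to Iglc1. It was 0.62 for Iglv1 to Iglc2 and 0.46 for Iglv1 to Iglc3, so the order was not the same there.

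**Figure D3:**
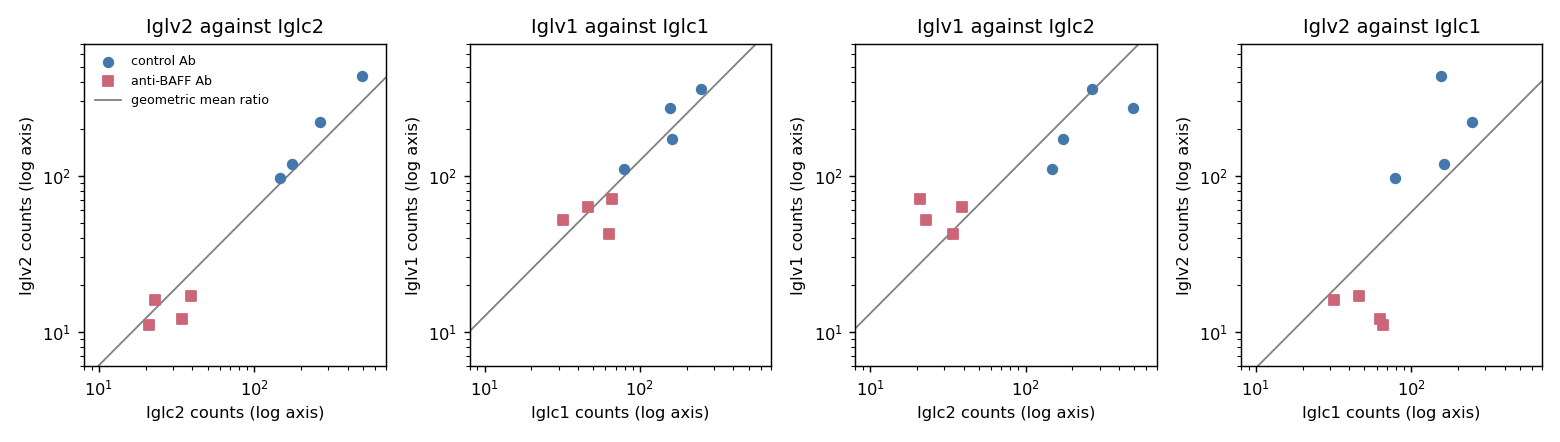
Counts of a lambda V gene against counts of a constant gene in each mouse (both axes log), for Iglv2 against Iglc2, Iglv1 against Iglc1, Iglv1 against Iglc2 and Iglv2 against Iglc1. The line in each panel is the geometric mean ratio over the 8 mice. Mice lie closest to it in the first pair of panels (SD of the log2 ratio 0.44 and 0.45) and scatter farther from it in the others (0.83 and 1.35).

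When the V counts of each block were divided by the counts of the constant genes downstream of it, the differences between the groups did not pass the test. The log2 ratio of Iglv1 to Iglc1 and Iglc3 together was −0.01 ± 0.26 in the control group and −0.15 ± 0.42 in the anti-BAFF group (SD, n = 4, difference −0.14, exact permutation test, p = 0.629, adjusted p = 0.629). For Iglv2 and Iglv3 together against Iglc2 it was −0.29 ± 0.15 and −0.72 ± 0.23 (SD, n = 4, difference −0.43, exact permutation test, p = 0.0571, adjusted p = 0.0857). The latter difference became −0.66 (exact permutation test, p = 0.0286) when Iglc3 was added to Iglc2, so its side of the threshold depended on how the close copies were counted. Kappa V genes served as the reference for the same measure. Their summed counts per Igkc count lay between 0.537 and 0.594 in all 8 mice, and their log2 ratio to Igkc differed by 0.02 between the groups (exact permutation test, p = 0.543, adjusted p = 0.611). Without the most abundant kappa V gene of each mouse, the difference was 0.28 (exact permutation test, p = 0.0571).

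The lambda share of the light chain was compared next. Lambda constant genes made up 5.54, 5.04, 3.35 and 6.52% of light chain constant counts in control mice 1, 2, 6 and 9, and 5.89, 7.92, 4.78 and 8.25% in anti-BAFF mice 5, 7, 8 and 10. The groups overlapped, with control mouse 6 the lowest and anti-BAFF mouse 10 the highest. The mean was 5.11 ± 1.32% in the control group and 6.71 ± 1.66% in the anti-BAFF group (SD, n = 4), a difference of 1.60 percentage points (exact permutation test, p = 0.2, adjusted p = 0.257). It was 1.01 percentage points without control mouse 6 and 2.24 without anti-BAFF mouse 8, the extremes over leaving out single mice. The 95% Wilson interval of a single mouse, which covers counting error only, ran from 2.97 to 3.78% in control mouse 6 and from 6.79 to 9.99% in anti-BAFF mouse 10, and control mouse 9, at 6.10 to 6.96%, lay clear of control mouse 6 of its own group. Lambda V genes made up 8.10 ± 2.36% of all light chain V counts in the control group and 9.51 ± 3.54% in the anti-BAFF group (SD, n = 4), and these ranges also overlapped.

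**Figure D4:**
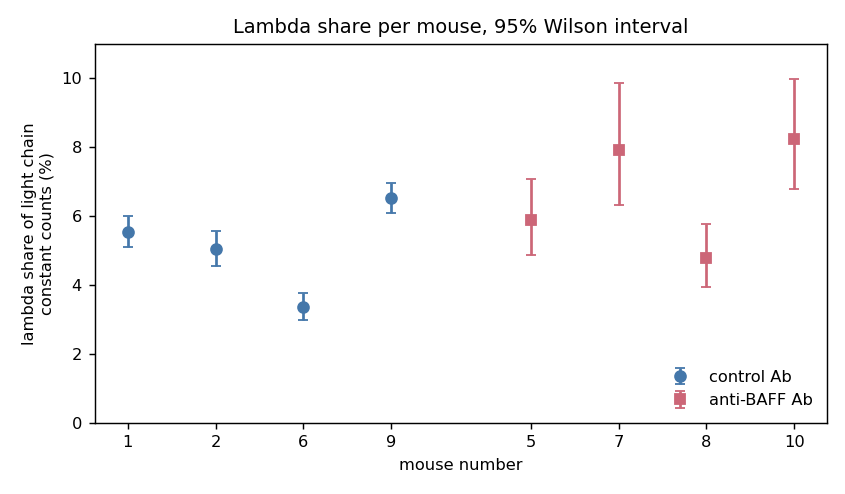
Lambda constant counts as a percentage of all light chain constant counts in each mouse (points), with 95% Wilson intervals as bars. The groups overlap: control mice lie between 3.35 and 6.52%, anti-BAFF mice between 4.78 and 8.25%.

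Set against Igkc in the same mouse, single lambda genes had differences in both directions. The log2 ratio of Iglc1 to Igkc was higher in the anti-BAFF group by 1.16 (exact permutation test, p = 0.0286, adjusted p = 0.171 over the 6 lambda genes). For Iglv1 the difference was 0.84 (exact permutation test, p = 0.143, adjusted p = 0.343), and for Iglv2 it was −0.95 (exact permutation test, p = 0.171, adjusted p = 0.343). Iglc2 differed by −0.34 (exact permutation test, p = 0.571, adjusted p = 0.571). None of the 6 passed after adjustment. For Iglc1 the groups did not overlap, but a single ratio at the smallest possible p cannot pass an adjustment over 6. The adjusted result therefore does not decide whether Iglc1 and Igkc differed alike. As sums, the lambda constant genes were 5.48-fold and the lambda V genes 6.39-fold higher in the control group, next to 6.40-fold for the kappa V genes.

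The light chains were then compared with the heavy chains with which they pair. The heavy constant genes together stood at 1466 ± 307 CPM in the control group and 292 ± 115 CPM in the anti-BAFF group, a 5.02-fold difference, against 594 ± 139 and 92.7 ± 42.9 CPM (6.41-fold) for the light constant genes (SD, n = 4). The log2 ratio of light to heavy constant counts was −1.31 ± 0.09 in the control group and −1.69 ± 0.11 in the anti-BAFF group (SD, n = 4). The groups did not overlap (difference −0.38, exact permutation test, p = 0.0286, adjusted p = 0.0514). Against Ighm, the constant gene of IgM, alone, there were 0.364 to 0.439 Igkc counts per Ighm count in the control mice and 0.289 to 0.342 in the anti-BAFF mice. Ighm itself had a log2 fold change of −2.36 and was the 1 heavy constant gene of 7 tested that passed the adjusted threshold in edgeR.

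**Figure D5:**
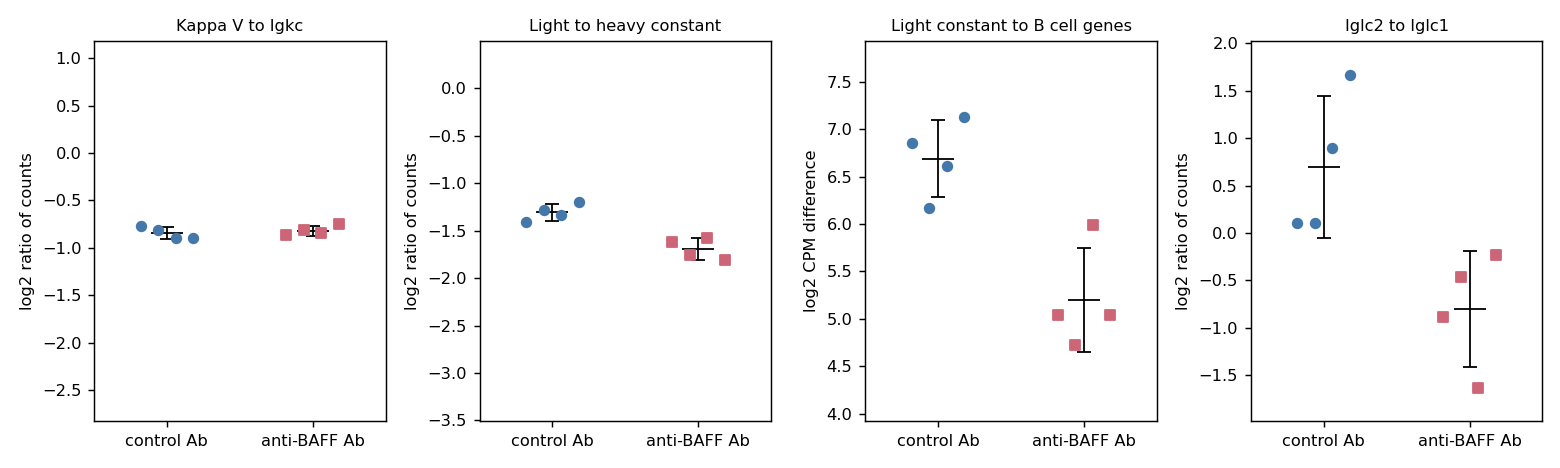
Log2 ratios of kappa V to Igkc, light to heavy constant and Iglc2 to Iglc1 counts, and the log2 CPM difference between light constant genes and B cell markers, for each mouse, with group means and SDs as bars. The groups overlap for kappa V to Igkc and are apart in the other panels, with differences of −0.38 for light to heavy, −1.49 for light constant to B cell genes and −1.50 for Iglc2 to Iglc1.

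Jchain, the joining chain of secreted IgM and IgA, had the profile most like that of Igkc among genes outside the immunoglobulin V, J and constant genes. Likeness was measured as the root mean square difference of the centred log2 CPM over the 8 mice, and Jchain stood at 0.0906, where the median gene of these 15884 was at 1.51. The number of Igkc counts per Jchain count was 4.51 ± 0.324 in the control group and 4.64 ± 0.331 in the anti-BAFF group (SD, n = 4), and the log2 fold change of Jchain was −2.77 (adjusted p = 0.0447 in edgeR). Mzb1, an endoplasmic reticulum protein of antibody-producing cells, followed at 0.464, Pou2af1, the B cell coactivator of octamer-dependent immunoglobulin transcription, at 0.494, Cd79a, a signaling subunit of the B cell receptor, at 0.565 and Cr2, a complement receptor of B cells, at 0.591. These same 5 genes were also the nearest to the summed lambda constant genes, at 0.408 for Jchain, 0.412 for Mzb1 and 0.570 for Cr2. Igkc was at 0.415 from that sum. Likeness is a description over 8 libraries that fall into the treatment groups and has no test.

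Few of the genes that act in the transcription of light chains or their assembly into antibodies passed the test. Of 10 genes for factors that act on immunoglobulin transcription, Pou2af1 passed the adjusted threshold (8.32 ± 0.815 CPM in the control group and 2.12 ± 0.699 in the anti-BAFF group, SD, n = 4, log2 fold change −1.98, adjusted p = 0.0447 in edgeR), and the median log2 fold change was −0.03, beside 0.00 over all tested genes. At an unadjusted p of 0.05, 2 of the 10 were lower and 0 higher. Pax5 was the other lower gene (log2 fold change −1.53, adjusted p = 0.145 in edgeR). Control levels differed widely within the list, with 7.05 CPM for Pax5, 71.9 for Ebf1, 87.4 for Irf8 and 215 for Spi1. Which cells these transcripts came from was not tested. Of 12 genes for folding and assembly in the endoplasmic reticulum, 0 passed the adjusted threshold in edgeR and 1 passed at an unadjusted p of 0.05. This gene was Mzb1 (6.10 ± 1.13 and 1.45 ± 0.820 CPM, SD, n = 4, log2 fold change −2.07), and the median of the list was −0.06. Light chain J segments, which are too short to collect many reads, were all below the filter, with 36 counts in the control group and 6 in the anti-BAFF group for Igkj5, the segment nearest to Igkc. The 7 genes of the surrogate light chain and of V(D)J recombination, used by developing B cells in the bone marrow, were below the filter too, with a summed level of 0.247 to 0.885 CPM in the control mice and 0.195 to 0.450 CPM in the anti-BAFF mice.

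Markers of B cells were set beside the light chains. All 11 markers were lower in the anti-BAFF group by their fitted value, with a median log2 fold change of −1.24 and a range from −2.93 for Fcer2a and −2.65 for Cr2 to −0.18 for Cd22, and their summed level was 70.1 to 81.8 CPM in the control mice and 34.4 to 57.7 CPM in the anti-BAFF mice. In edgeR, 9 were lower at an unadjusted p of 0.05 and 0 after adjustment, and DESeq2 called 6. The light chain constant level was 6.69 ± 0.41 above the mean of these markers on the log2 CPM scale in the control group and 5.20 ± 0.55 above it in the anti-BAFF group (SD, n = 4, difference −1.49, exact permutation test, p = 0.0286, adjusted p = 0.0514), with no overlap between the groups. That mean includes markers that differed little, such as Cd22. The light chain constant level itself differed by −2.78 in mean log2 CPM. Of the 11 markers, only Fcer2a had a fitted log2 fold change farther below 0. It rested on 18 counts in all anti-BAFF libraries together. Of 7 plasma cell markers, 4 had a fitted value below 0 and the median log2 fold change was −0.18. Jchain (−2.77) passed the adjusted threshold in edgeR, Mzb1 (−2.07) passed at an unadjusted p of 0.05, and the log2 fold changes of the others were −0.60 for Tnfrsf17, −0.18 for Derl3, 0.00 for Xbp1, 0.01 for Sdc1 and 0.25 for Prdm1. Mean control levels were 237 CPM for Xbp1, 222 for Sdc1, 127 for Jchain and 40.5 for Prdm1. They were 6.10 CPM for Mzb1, 3.84 for Derl3 and 1.32 for Tnfrsf17. The cells that these marker transcripts came from were not determined, so the median is not a measure of plasma cells alone. The part of B and plasma cell number in the light chain differences was not tested.

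The libraries held 13562340 to 16778627 counts in the control group and 14555098 to 18548024 in the anti-BAFF group. Macrophage markers summed to 3271 to 4442 and 3525 to 4112 CPM, T cell markers to 17.8 to 27.7 and 14.3 to 19.8 CPM, and stromal and endothelial markers to 5336 to 7288 and 5618 to 7425 CPM in the control and anti-BAFF group, and none of these markers passed in edgeR, adjusted or not. Markers of the epididymis, which adjoins gonadal WAT, ranged from 12.7 to 1566 CPM in the control group and from 56.6 to 1627 CPM in the anti-BAFF group, with control mouse 2 and anti-BAFF mouse 7 the highest. Without both mice, the log2 fold changes were −2.63 for Igkc (adjusted p = 0.141 in edgeR), −3.33 for Iglc2 (adjusted p = 0.166) and −4.28 for Iglv2 (adjusted p = 0.146). Neutrophil markers summed to 63.1 to 88.3 CPM in the control mice and up to 268 CPM in anti-BAFF mouse 5, whose Igkc level of 112 CPM lay inside its group's range. The part of these markers in the light chain differences was not tested.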

How the data were processed

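Counts per gene were deposited by the authors as a table with a column per mouse, made from bulk RNA sequencing of SVF and mapped to mm10 per the labels. The read aligner and counter, the annotation, the treatment of multiply mapped reads and strandedness are not given in the sources used here. The other values of the table that were used, gene lengths and coordinates, were taken as deposited.

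Mice were grouped by the treatment in their labels. The 7 members and the gene lists were chosen with earlier results of these data known. The test was edgeR 4.0.16 (R 4.3.3) on the deposited counts (a minimum count of 10 in filterByExpr, TMM, quasi-likelihood test with treatment as the only term, Benjamini-Hochberg adjustment over 15963 genes). Printed CPM used TMM-scaled library sizes, and the floor below used the total counts. Fold changes of means are ratios of CPM. Ratios and shares per mouse were compared with exact two-sided permutation tests of 4 against 4 mice (smallest p 0.0286), with a pseudocount of 0.5 for log2 ratios. Adjustment was over 9 measures, and separately over 6 ratios to Igkc that were added after seeing the data, 15 adjusted tests in all. Permutation p-values of the alternative settings came on top of these and were not adjusted.

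In data simulated from these counts, with 200 of 15963 genes changed by 2 on the log2 scale, edgeR recovered 91.5% with 4.64% false calls, DESeq2 95.0% with 18.3%, and limma 85.0% with 5.78%. The simulation drew on the gene variability that edgeR had estimated and changed genes equally in both directions. It therefore does not rank the tools for the real data, where edgeR's calls were all lower. Alternatives were DESeq2 1.42.0, limma 3.58.1 on log2(FPKM + 1), other normalizations and filters, edgeR's robust option, and leaving out mice. The named genes were the members, the listed genes that passed in edgeR, list genes set beside them, and the 5 genes with profiles nearest to Igkc and to the lambda constant sum. At the smallest library, a floor of 3 counts equals 0.221 CPM. Replicates of a group differed by a chi-square of at least 7.91 per degree of freedom, so no library was a repeat of another.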

Additional observations from a re-analysis of the deposited data

Results flagged for a closer look

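The Iglc3 level of control Ab-treated mouse 9, 10.02 CPM, was far above that of the other control mice, which lay between 2.12 and 2.35 CPM. It was the only value to stand apart in this way (Dixon's test at the 95% level) among 32 groups of 4 mice, where chance gives about 1.6. Mouse 9 also had the highest Iglc2 (30.5 CPM) and Iglv2 (27.0 CPM) of its group, but these did not stand apart by the same test.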

How the results depend on the processing

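No paired analysis was possible because the groups share no mouse numbers. The number of members that edgeR called lower was 3. It stayed at 3 with RLE, upper quartile or library size normalization, with limma on log2(FPKM + 1), with at least 10 counts in every mouse and with Iglc2 and Iglc3 added together, and was 4 without the filter. It was 6 with DESeq2, 0 with edgeR's robust option (lowest adjusted p 0.0518, 6 members at an unadjusted p of 0.05) and 0 without the mouse with the highest epididymis markers in each group (lowest adjusted p 0.141, 6 members at an unadjusted p of 0.05). It ranged from 0 to 2 when single mice were left out. The cause was not tested. All fitted log2 fold changes of the members kept their sign. The ratio of Iglv2 and Iglv3 to Iglc2 differed by −0.45 (exact permutation test, p = 0.0286) per kilobase and by −0.66 with Iglc3 added. The share of Iglc1 alone against Igkc differed by 1.89 percentage points (exact permutation test, p = 0.0286). Of 103 values of the 9 measures under all alternatives, 102 kept their direction. The exception was the ratio of Iglv1 to Iglc1 and Iglc3, at 0.05 without anti-BAFF mouse 5. Alternatives with added rows, with single constant genes or without the most abundant kappa V gene were chosen after seeing the data. Iglv2 in the anti-BAFF mice (11 to 17 counts) and Iglv3 (1 to 7 counts) were limited by depth.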
